A study of Homo sapiens with 60 samples.

Results

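Mitochondrial ribosomal protein genes were followed in A549 cells, an established human lung carcinoma line, treated for 24 h with herbal extracts. The group held every protein-coding gene whose symbol is MRPL or MRPS with a number, plus DAP3 and PTCD3, with a mean of at least 1 CPM (counts relative to library size, with TMM scaling) over all 60 libraries. All 80 genes matched by symbol passed that minimum, of 60675 gene IDs in the count table, of which 13743 had such a mean. The rule used symbols and this mean level, and no difference between samples.

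The tested libraries came from 8 extracts at 3 doses, each dose being one group. Sayeok-tang, a herbal formula extracted in water, was given at 20, 100 and 500 µg/mL (n = 3 libraries per dose). Bojungikgi-tang, another formula in water, was given at the same doses (n = 2). Zingiberis Rhizoma Recens (fresh ginger), Zingiberis Rhizoma (dried ginger) and Pinelliae Tuber, each extracted in 70% ethanol, were given at 20, 100 and 500 µg/mL (n = 3). The doses of Scutellariae Radix, from the same solvent, were 7.6, 38 and 190 µg/mL (n = 3). Coptidis Rhizoma at 4.4, 22 and 110 µg/mL and Zizyphi Fructus at 20, 100 and 500 µg/mL, ethanol extracts of the same strength, are represented by 1 library for each dose. Vehicle, the reference for all of them, was DMSO (n = 3), for which the sample labels give 0.1% and the series text 2%. Per the series text, an extract with an IC20 (the concentration that inhibits by 20%) under 500 µg/mL was tested up to that concentration. The labels do not say whether replicates were separate cultures, and p-values therefore speak only of the scatter among libraries, which may be technical. All titles carry the label Second_BatchC, but the sample codes of the vehicle libraries open with another set code than those of the extract libraries. The labels do not say what this code means, so handling and treatment cannot be told apart in a comparison with vehicle. Comparisons between doses of one extract do not use the vehicle libraries' levels.

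The mitochondrial ribosome translates the few messenger RNAs of the mitochondrial genome, all of which code for subunits of the respiratory chain and ATP synthase. Its ribosomal RNAs, MT-RNR1 in the small subunit and MT-RNR2 in the large one, are made from the mitochondrial genome, whereas all of its proteins are made from nuclear genes, translated in the cytosol and imported. Some of these proteins have counterparts in bacterial ribosomes, and others were added in the mitochondrial lineage. Nuclear factors such as NRF1, the GABP complex of the ETS family and YY1 are known to bind promoters of nuclear genes for mitochondrial proteins.

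Of the 80 genes, 51 code for proteins of the large subunit and 28 for proteins of the small subunit. MRPS18A and MRPS30 were counted with the large subunit despite their names, and MRPS36 was placed in neither. By ancestry, 44 have bacterial counterparts and 31 are specific to mitochondria, with 5 left unclassified. Promoter sequences were found for 71 of the 80 in RefSeq (GRCh38.p14). In the 300 bases from 250 before to 50 after the start, the ETS letters CCGGAAG were found on either strand in 29 of 71 promoters (40.8%), against 14.5% of 14837 coding promoters. The YY1 letters AAGATGGCG were found in 14 of 71 (19.7%), against 2.83% of all. The NRF1 letters GCGCNTGCG were found in 11 (15.5%), against 11.1%, and the E-box CACGTG in 6 (8.45%), against 8.95%. Overlapping matches of one motif on both strands were counted once, and matches of different motifs do not overlap in the promoters printed here. A match describes the letters of the window and shows no binding.

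The 250 bases before the RefSeq start are shown for 4 genes whose levels carry the results below, with matches to these motifs in capitals. MRPL17, lower with extract at nearly every dose, holds 2 NRF1 matches. MRPL36, also often lower, holds 1, with an E-box and a YY1 match. MRPL51 and MRPS10, which moved in opposite directions at the high dose of dried ginger, have ETS matches: 2 in MRPL51 and 1 in MRPS10. Gene spans and distances between genes below use GENCODE positions, which can differ from the RefSeq starts. The windows of MRPL36 and MRPL51 lie inside their GENCODE spans, 1798386 to 1801366 and 6491886 to 6493841. They are therefore not the bases before the GENCODE start. Those of MRPL17 and MRPS10 extend beyond the GENCODE span. The windows are chr11:6683341-6683590 (minus strand), chr5:1799838-1800087 (minus strand), chr12:6493263-6493512 (minus strand) and chr6:42217862-42218111 (minus strand), each written 5′ to 3′ on the gene's own strand.
MRPL17: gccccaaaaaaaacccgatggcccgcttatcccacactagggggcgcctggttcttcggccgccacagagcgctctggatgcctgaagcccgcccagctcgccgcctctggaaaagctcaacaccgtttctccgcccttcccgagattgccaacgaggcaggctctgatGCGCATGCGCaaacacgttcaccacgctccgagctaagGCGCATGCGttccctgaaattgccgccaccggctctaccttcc
MRPL36: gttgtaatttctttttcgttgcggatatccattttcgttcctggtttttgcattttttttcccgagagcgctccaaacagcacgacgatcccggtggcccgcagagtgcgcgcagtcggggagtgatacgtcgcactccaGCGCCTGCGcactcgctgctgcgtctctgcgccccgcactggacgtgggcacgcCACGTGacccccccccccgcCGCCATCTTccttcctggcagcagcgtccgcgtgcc
MRPL51: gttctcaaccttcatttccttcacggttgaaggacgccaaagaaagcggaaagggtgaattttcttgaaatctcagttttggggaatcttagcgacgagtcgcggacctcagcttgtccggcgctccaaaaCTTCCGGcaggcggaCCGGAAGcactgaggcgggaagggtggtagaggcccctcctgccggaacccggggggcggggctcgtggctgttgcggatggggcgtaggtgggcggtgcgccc
MRPS10: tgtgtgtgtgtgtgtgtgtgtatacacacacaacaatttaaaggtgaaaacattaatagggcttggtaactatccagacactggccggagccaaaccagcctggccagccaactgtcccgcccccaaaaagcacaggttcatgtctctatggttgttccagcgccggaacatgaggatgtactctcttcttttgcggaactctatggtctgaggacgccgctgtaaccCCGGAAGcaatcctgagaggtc

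By GENCODE positions, these genes also lie close to other genes. For 20 of 80 (25%) another coding gene on the opposite strand started head to head, at most 1000 bp upstream or with a short overlap. This held for 11.8% of 12158 coding genes that reached the same minimum. Annotated bodies of 39 of the 80 overlapped another coding gene. The same share over all genes was not computed, so overlap cannot be called particular to this group. Among the genes named below these include DAP3 (YY1AP1), MRPL51 (NCAPD2), MRPL49 (FAU and SYVN1), MRPS12 (SARS2), MRPS7 (GGA3 and MIF4GD), MRPS6 (SLC5A3) and MRPS16 (DNAJC9). The library kit keeps the strand, but the sources used here do not say whether counting used it, so reads from such pairs may not be fully told apart. Of 77 pseudogenes named after members, 3 had a mean of at least 1 CPM: MRPS31P5 (3.84 CPM), MRPL45P2 (2.4) and MRPS31P4 (1.39).

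The 80 genes were moderately expressed, with a median of 45.5 CPM, against 24.9 CPM for all 13743 genes that reached the same minimum. Their median exonic length was 2544 bases, against 4915, and their median GC content 49.0%, against 49.1%. On a scale per length (CPM per kb of the median coding transcript), the levels ran from 8.36 to 263 with a median of 39.9. The highest were those of MRPL51 (263 CPM per kb), a mitochondria-specific large-subunit protein, MRPL12 (135), the stalk protein that also binds the mitochondrial RNA polymerase, and MRPL49 (134). The lowest were those of MRPS31 (8.36), MRPS14 (9.15) and MRPL22 (9.67). Median levels per kb were 39.2 for the large and 43.8 for the small subunit. Per kb of exonic length the order differed, with MRPL12 highest (135), MRPL51 at 93.6, MRPL49 at 22.1 and MRPL46 lowest (4.77).

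Library totals ran from 17.51 to 38.54 M counts, with a median of 23.53 M. The 8 A549 markers summed to 8381 to 12108 CPM per library and 9 markers of other cell types to 1.85 to 4.75 CPM, so those other cells left little signal in any library. The second library of fresh ginger at 100 µg/mL stood apart, with the lowest total and 48 of the 80 genes above the range of the vehicle libraries, whereas its companions had 4 and 8. The share of all genes above that range was not computed for these libraries, so a shift of the whole library cannot be told apart. The count of genes called at that dose and their median change are given with and without that second library. In bulk samples, fewer cells of a kind and less RNA per cell cannot be told apart.

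Summed over the 80 genes, messenger RNA was lower with extract than with vehicle at most doses. The sum was below that of all 3 vehicle libraries, which ran from 4542 to 4825 CPM, in 54 of 57 extract libraries. The other 3 were a library each of fresh ginger at 100 µg/mL (4998 CPM), Zizyphi Fructus at 500 µg/mL (4637) and Bojungikgi-tang at 500 µg/mL (4556). The lowest sums were those of Scutellariae Radix at 190 µg/mL, at 4241 ± 97.3 CPM, and of dried ginger at 500 µg/mL, at 4226 ± 46.2 CPM, against 4677 ± 142 CPM in vehicle (SD, n = 3 each). The share of all counts taken by the group stayed between 0.416% and 0.494%. The sum was low at low doses too: it was 4284 ± 72.8 CPM in fresh ginger and 4397 ± 101 CPM in Pinelliae Tuber at 20 µg/mL.

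**Figure D1:**
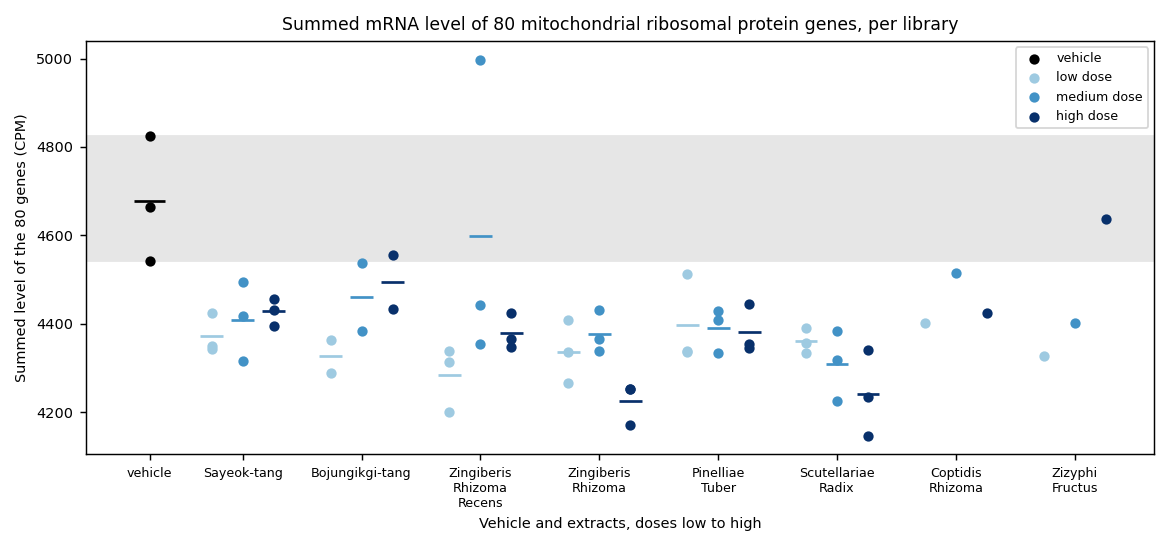
Summed level of the 80 genes in CPM (y axis, not starting at 0) for each of the 60 libraries, by extract and with doses low to high beside vehicle. Bars are group means and the grey band is the range of the vehicle libraries, 4542 to 4825 CPM. All but 3 extract libraries lie below the band.

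In all 18 comparisons of one dose with vehicle, by edgeR's quasi-likelihood test with Benjamini-Hochberg adjustment over all genes, the median log2 change of the 80 genes was below 0. It ran from −0.14 to −0.02, whereas the median of all genes tested was within 0.01 of 0. The value nearest 0 was that of fresh ginger at 100 µg/mL, which was −0.07 without the library that stands apart, library 2, and above 0, at 0.02, 0.0024 and 0.0045, without treated library 1, treated library 3 and vehicle library 3. Of 288 calls at an adjusted p under 0.05, 283 were lower and 5 higher, where all genes tested had 17876 lower and 15364 higher. At least 1 call was made for 66 of the 80 genes and none for 14, and 60.1% of the 16331 genes tested throughout had at least 1 call. The changes were small: the largest was that of MRPL17 with Scutellariae Radix at 190 µg/mL, a 1.55-fold difference. These comparisons share the 3 vehicle libraries, so they are not independent of each other.

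**Figure D2:**
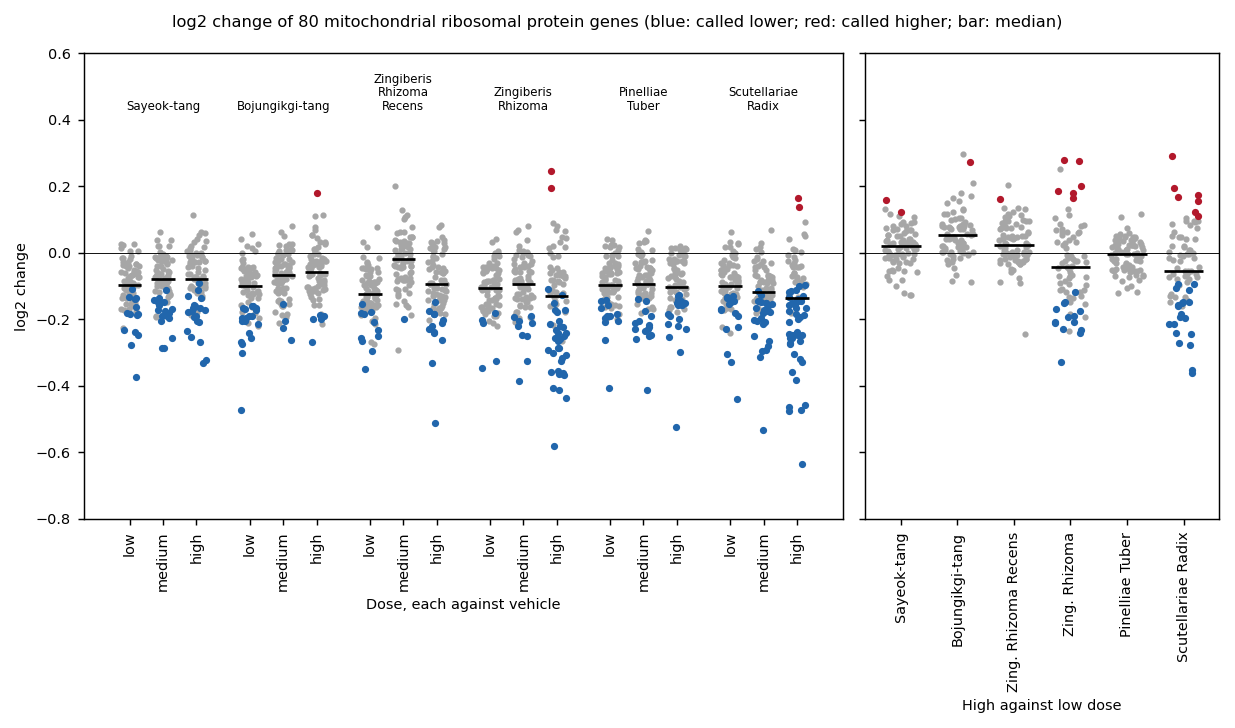
log2 change (y axis) of each of the 80 genes for 6 replicated extracts, each dose against vehicle on the left and the high against the low dose on the right. Points are genes, called lower in blue, called higher in red and not called in grey, and bars are medians. Medians are below 0 in all 18 comparisons with vehicle, and wide spreads in both directions appear between doses for dried ginger (Zing. Rhizoma) and Scutellariae Radix.

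The genes lower most often were MRPS12 and MRPS7, called in 17 of 18 comparisons with vehicle, MRPL17 (16), MRPL28 and MRPL36 (14 each) and MRPL15 (13). All code for proteins with bacterial counterparts. How many of all genes were called lower this often was not computed. MRPS12 sits at the decoding centre of the small subunit and MRPS7 by the path of the messenger RNA, MRPL17 lies near the exit of the polypeptide tunnel, and MRPL36 and MRPL28 are further large-subunit proteins. MRPL17 (ENSG00000158042, chromosome 11, 6680782 to 6683401) was below every vehicle library in all 57 extract libraries, and MRPS12, MRPL15, MRPL28 and MRPL36 in 56. At least 50 of the 57 libraries were below the vehicle range for 16 of the 80 genes (20%), against 6.12% of the 13743 genes above the minimum. None of the 80 was above it in as many, against 4.05%.

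Dried ginger at 500 µg/mL had 34 genes lower and 2 higher than vehicle, where 19% of all genes tested were called lower and 20.2% higher. The large subunit had 24 of 51 lower, and the small subunit 10 of 28 lower with the 2 higher. Of the genes with bacterial counterparts, 23 of 44 were lower and 1 higher, and of those specific to mitochondria 10 of 31 were lower and 1 higher. The count of 36 ranged from 32 to 39 when each library was left out in turn. Markers of A549 moved at this dose as well: 3 of 8 were lower and none higher, and their sum was 8381 to 8581 CPM, against 11275 to 12079 CPM in vehicle. The 9 markers of other cell types summed to 1.85 to 2.13 CPM, against 3.61 to 4.12 CPM in vehicle, with 2 of 2 tested lower and CD3E at 0 in all libraries. Their part in the results was not tested.

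DAP3 (ENSG00000132676, chromosome 1, 155687960 to 155739010), a GTP-binding protein of the small subunit first described in cell death, had 93.5, 91.6 and 94.8 CPM in dried ginger at 500 µg/mL, against 75.7, 82.04 and 78.1 CPM in vehicle. The groups did not overlap, and DAP3 rose (log2 change 0.25 ± 0.05, adjusted p = 9.61e-05). MRPS10 (ENSG00000048544, chromosome 6, 42206801 to 42217865), a small-subunit protein with a bacterial counterpart, had 63.04, 58.04 and 62.1 CPM, against 52.4, 53.5 and 54.2 CPM in vehicle. It rose as well, without overlap (0.20 ± 0.04, adjusted p = 0.000862).

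Among the genes lower with dried ginger at 500 µg/mL, MRPL51 (ENSG00000111639, chromosome 12, 6491886 to 6493841) had 122, 114 and 123 CPM, against 151, 163 and 164 CPM in vehicle. All 3 treated libraries were below all vehicle libraries (−0.41 ± 0.05, adjusted p = 2.99e-07). MRPL18 (ENSG00000112110, chromosome 6, 159789812 to 159798436), the counterpart of a bacterial protein that binds 5S rRNA, had 46.8, 47.9 and 47.7 CPM, against 56.3, 61.2 and 64.6 CPM in vehicle. The groups were again separate (−0.35 ± 0.05, adjusted p = 9.01e-07). MRPL14, a large-subunit protein at the interface with the small subunit, had 22.3, 21.03 and 22.4 CPM, against 27.1, 28.6 and 28.8 CPM in vehicle (−0.36 ± 0.06, adjusted p = 5.71e-06), also without overlap.

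Scutellariae Radix at 190 µg/mL had 44 genes lower and 2 higher than vehicle, where 20% of all genes tested were called lower and 20.2% higher. Of the large subunit 29 of 51 were lower and 1 higher, and of the small subunit 14 of 28 were lower and 1 higher. Among genes with bacterial counterparts 30 of 44 were lower and none higher, and among those specific to mitochondria 11 of 31 were lower and 2 higher. These ancestry classes were described by counts only, and their difference was not tested. The count of 46 ranged from 35 to 47 when each library was left out in turn. Of the A549 markers 5 of 8 were lower and 1 higher, with sums of 9707 to 10059 CPM, against 11275 to 12079 CPM in vehicle, and markers of other cell types summed to 2.44 to 2.80 CPM, against 3.61 to 4.12 CPM. Their part in the results was not tested.

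MRPL17 had 35.7, 35.7 and 38.1 CPM with Scutellariae Radix at 190 µg/mL, against 57.8, 56.5 and 55.6 CPM in vehicle. The gap between the groups was wide relative to the spread within them (−0.63 ± 0.05, adjusted p = 1.74e-13). MRPL36 (ENSG00000171421, chromosome 5, 1798386 to 1801366) had 27.2, 27.8 and 28.03 CPM, against 36.9, 38.2 and 38.9 CPM in vehicle (−0.46 ± 0.05, adjusted p = 2.15e-09). MRPS6 (ENSG00000243927, chromosome 21, 34073224 to 34143034), a small-subunit protein with a bacterial counterpart, had 21.8, 19.8 and 21.5 CPM, against 27.2, 31.1 and 28.7 CPM in vehicle (−0.46 ± 0.06, adjusted p = 1.45e-08). Neither gene's groups overlapped. DAP3 rose here too, with 89.03, 88.5 and 87.2 CPM, against 75.7, 82.04 and 78.1 CPM in vehicle (0.17 ± 0.04, adjusted p = 0.000216). MRPL45, a large-subunit protein that faces the inner membrane, rose as well, with 72.8, 66.8 and 66.1 CPM, against 60.8, 63.2 and 62.9 CPM in vehicle (0.14 ± 0.04, adjusted p = 0.00445).

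Sayeok-tang at 500 µg/mL had 21 of 80 genes lower and none higher, where 9.53% of all genes were called lower and 9.39% higher. MRPS12 (ENSG00000128626, chromosome 19, 38930548 to 38933162) led, with 123, 129.6 and 126 CPM, against 151, 155 and 166 CPM in vehicle (−0.32 ± 0.04, adjusted p = 5.03e-08). MRPS7 (ENSG00000125445, chromosome 17, 75261674 to 75266373) had 94.8, 96.95 and 100.5 CPM, against 111, 113 and 118 CPM in vehicle (−0.23 ± 0.03, adjusted p = 1.64e-06). MRPL17 changed by −0.33 ± 0.05 (adjusted p = 2.20e-05). For all 3 genes every treated library was below every vehicle library. Of the A549 markers 5 of 8 were lower and 1 higher, with sums of 9321 to 9539 CPM, against 11275 to 12079 CPM in vehicle. Markers of other cell types summed to 2.19 to 3.06 CPM, against 3.61 to 4.12 CPM, with 1 of 2 tested lower. Their part in the result was not tested. At the high doses of Bojungikgi-tang, fresh ginger and Pinelliae Tuber, described next, the A549 markers summed to 10404 to 10538, 10460 to 10814 and 10835 to 11106 CPM.

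Bojungikgi-tang at 500 µg/mL had 5 genes lower and 1 higher, where 2.33% of all genes were called lower and 1.39% higher. The lower ones led with MRPS12 (129.8 and 132 CPM, against 151, 155 and 166 CPM in vehicle, log2 change −0.27 ± 0.04, adjusted p = 0.000113), MRPS7 (−0.20 ± 0.04) and MRPL38 (−0.19 ± 0.05, adjusted p = 0.0174). MRPS26, a small-subunit protein specific to mitochondria, was higher, with 67.02 and 66.3 CPM, against 52.95, 59.02 and 64.5 CPM in vehicle (0.18 ± 0.05, adjusted p = 0.046). The groups were separate, but the highest vehicle library lay close to the treated ones. The count of 6 was 3 without library 2 of this dose and 2 without library 3.

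Fresh ginger at 500 µg/mL had 13 genes lower and none higher, where 7.16% of all genes were called lower and 6.21% higher. MRPL28 had 61.1, 58.4 and 60.2 CPM, against 69.6, 67.2 and 74.03 CPM in vehicle (−0.23 ± 0.05, adjusted p = 0.00103). MRPL17 (−0.51 ± 0.09, adjusted p = 0.00113) and MRPS12 (−0.33 ± 0.07, adjusted p = 0.00197) were lower too, in 3 of 3 libraries. The count of 13 depended on single libraries: it was 5 without treated library 1 or 2, 7 without treated library 3, 7 without vehicle library 2 and 4 without vehicle library 3.

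Pinelliae Tuber at 500 µg/mL had 18 genes lower and none higher, where 5.08% of all genes were called lower and 3.85% higher. MRPL17 had 39.4, 36.99 and 42.02 CPM, against 57.8, 56.5 and 55.6 CPM in vehicle (−0.52 ± 0.05, adjusted p = 6.57e-09). MRPS12 (−0.30 ± 0.06, adjusted p = 0.00648) was lower without overlap, as was MRPS16, a small-subunit protein with a bacterial counterpart, with 115, 120.5 and 122 CPM, against 129, 133 and 133 CPM in vehicle (−0.14 ± 0.03, adjusted p = 0.0068). The count of 18 was 4 without treated library 1, 8 without treated library 2 and 4 without vehicle library 3.

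MRPL17, MRPL36, MRPS12 and MRPS7 were thus called lower at the high dose of all 6 replicated extracts, and MRPL14 at that of 5. Those lower at 4 of the 6 high doses were MRPL15, MRPL18, MRPL27, MRPL28, MRPL38, MRPL51, MRPS9, MRPS24 and MRPS28. The share of all genes called lower at as many high doses was not computed. These comparisons also share the vehicle libraries, so the recurrence cannot be called particular to this group. The MRPS18 paralogues, 3 proteins related to one bacterial protein, had small changes: MRPS18B had log2 changes of −0.05 with dried ginger and 0.06 with Scutellariae Radix at the high dose, neither called. MRPS18A had log2 changes of −0.12 and −0.16 and MRPS18C by −0.14 and −0.19 in the same comparisons, and of these the Scutellariae Radix values were called. MRPL12 was lower in both, by −0.29 ± 0.08 (adjusted p = 0.0067) and −0.24 ± 0.05 (adjusted p = 0.000568), as was MRPL37 (−0.29 ± 0.06 and −0.13 ± 0.04). MRPL41 was called in neither (−0.06 ± 0.10 and −0.13 ± 0.10), and its vehicle libraries ran from 34.1 to 49.6 CPM.

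The calls at the medium and low doses were all of lower genes, and MRPS12, MRPS7, MRPL17 or MRPL28 had the lowest p in each of these comparisons. With Scutellariae Radix, MRPL17 had 42.2, 40.9 and 42.5 CPM at 7.6 µg/mL, 39.04, 35.9 and 42.1 at 38 µg/mL and 35.7, 35.7 and 38.1 at 190 µg/mL, so it was already below the vehicle range at the lowest dose.

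At the low dose 14 genes were lower with Sayeok-tang (4.76% of all genes called lower and 3.58% higher), 19 with Bojungikgi-tang (4.19% and 2.75%) and 11 with fresh ginger (3.63% and 2.84%). There were 5 with dried ginger (2.14% and 1.46%), 12 with Pinelliae Tuber (3.46% and 2.05%) and 16 with Scutellariae Radix (5.02% and 3.87%). All 6 counts were lower without vehicle library 3: 7 for Sayeok-tang, 9 for Bojungikgi-tang, 4 for fresh ginger, 0 for dried ginger, 4 for Pinelliae Tuber and 4 for Scutellariae Radix. Without vehicle library 2, fresh ginger had 6 and dried ginger 2. Treated libraries moved the counts as well. Sayeok-tang had 6 without library 3, and Bojungikgi-tang 9 without library 2 and 4 without library 3. Fresh ginger had 5 without library 2 or 3, and dried ginger 0, 2 and 2 without library 1, 2 and 3. Pinelliae Tuber had 2 and 3 without library 2 and 3, and Scutellariae Radix 7 and 10 without library 1 and 2.

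At the medium dose 17 genes were lower with Sayeok-tang (6% of all genes called lower and 4.78% higher), 4 with Bojungikgi-tang (1.28% and 0.664%) and 1 with fresh ginger (0.541% and 0.229%). There were 9 with dried ginger (3.5% and 2.65%), 15 with Pinelliae Tuber (4.33% and 2.84%) and 25 with Scutellariae Radix (5.51% and 3.4%). Without vehicle library 3 there were 7 with Sayeok-tang, 0 with fresh ginger, 2 with dried ginger, 6 with Pinelliae Tuber and 10 with Scutellariae Radix. Sayeok-tang had 11 without vehicle library 2, and without vehicle library 1 Bojungikgi-tang had 9 and fresh ginger 0. The fresh ginger count was 13 without the treated library that stands apart, library 2, and 0 without either of the others. Sayeok-tang had 6 and 10 without treated library 1 and 3, Bojungikgi-tang 0 without library 2 and dried ginger 3 and 4 without library 2 and 3. Pinelliae Tuber had 9 and 5 without treated library 1 and 2, and Scutellariae Radix 14 and 15 without library 2 and 3.

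The high dose was compared with the low dose of each extract to look for changes with dose without the levels of the vehicle libraries. Dried ginger and Scutellariae Radix had changes in both directions, and the other 4 extracts few or none. In Sayeok-tang MRPS16 (0.12 ± 0.03, adjusted p = 0.00959) and MRPL4 (0.16 ± 0.05, adjusted p = 0.0435) rose and none fell (3.82% of all genes called higher and 3.77% lower). MRPL17 rose with Bojungikgi-tang (53.2 and 44.99 CPM at 500 µg/mL, against 41.9 and 39.8 at 20 µg/mL; 0.27 ± 0.07, adjusted p = 0.0425; 0.257% and 0.455% of all genes). MRPS10 rose with fresh ginger (56.3, 52.9 and 56.2 CPM, against 48.2, 49.5 and 50.2; 0.16 ± 0.05, adjusted p = 0.045; 1.72% and 1.95%). Pinelliae Tuber had 0 calls by edgeR and 0 by DESeq2, with 4 genes at an unadjusted p under 0.05, changes between −0.12 and 0.12, and 0.0603% of all genes called higher and 0.00603% lower. These small counts did not hold without single libraries. The 2 Sayeok-tang calls became 1 without high-dose library 1, 2 or 3 or low-dose library 2, and 0 without low-dose library 3. The Bojungikgi-tang call was lost without high-dose library 2 or either low-dose library, and in the fit of all 60 libraries and with DESeq2. The fresh ginger call was lost without high-dose library 1 or 3 or low-dose library 1 or 2.

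Dried ginger at 500 µg/mL had 6 genes higher and 14 lower than at 20 µg/mL, where 16.8% of all genes were called higher and 16% lower. Of the 80 genes 25% were called in either direction, which did not exceed the 32.8% of all genes. As shares of 80, the 6 higher fell short of the share of all genes and the 14 lower were near it. The higher genes were MRPS10, DAP3, MRPL45, MRPL24, MRPL52 and MRPS16. MRPS10 had 63.04, 58.04 and 62.1 CPM at 500 µg/mL, against 50.6, 50.04 and 50.4 CPM at 20 µg/mL (0.28 ± 0.05, adjusted p = 1.58e-05). DAP3 had 93.5, 91.6 and 94.8 CPM, against 73.9, 77.02 and 80.1 CPM (0.28 ± 0.05, adjusted p = 2.88e-05). MRPS16 had 141, 139 and 134 CPM, against 123, 122 and 124 CPM (0.17 ± 0.04, adjusted p = 0.00164). For all 3 genes every high-dose library was above every low-dose library.

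The largest fall with dose in dried ginger was that of MRPL51, which had 122, 114 and 123 CPM at 500 µg/mL, against 144, 151 and 157 CPM at 20 µg/mL (−0.33 ± 0.05, adjusted p = 1.39e-05). MRPL18 had 46.8, 47.9 and 47.7 CPM, against 53.9, 56.8 and 57.5 CPM (−0.24 ± 0.05, adjusted p = 0.00029). MRPL32, a zinc-binding large-subunit protein cut by a mitochondrial protease before assembly, had 42.6, 39.7 and 41.2 CPM, against 47.1, 48.1 and 47.5 CPM (−0.21 ± 0.05, adjusted p = 0.000631). None of these groups overlapped. At 100 µg/mL the levels of MRPL51 (143, 136 and 140.4 CPM) lay below those at 20 µg/mL and above those at 500 µg/mL. The count of 20 was 11 without high-dose library 2 and 13 without low-dose library 2. Of the A549 markers KRT8 and KRT18 fell and none rose, with sums of 8381 to 8581 CPM at 500 µg/mL, against 10401 to 10739 CPM at 20 µg/mL. Markers of other cell types summed to 1.85 to 2.13 CPM, against 3.65 to 4.52 CPM, and both that were tested fell. The part of these shifts was not tested.

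Scutellariae Radix at 190 µg/mL had 7 genes higher and 20 lower than at 7.6 µg/mL, where 15.5% of all genes were called higher and 15.6% lower. Counting both directions, 27 of 80 (33.8%) were called, near the 31% of all genes. As shares of 80, the 7 higher fell short of the share of all genes and the 20 lower exceeded it. These gaps were not tested. The higher genes were MRPL55, MRPS10, DAP3, MRPL45, MRPL58, MRPS18B and MRPS16. DAP3 had 89.03, 88.5 and 87.2 CPM at 190 µg/mL, against 79.9, 79.2 and 75.99 CPM at 7.6 µg/mL (0.17 ± 0.04, adjusted p = 0.00023). MRPL45 had 72.8, 66.8 and 66.1 CPM, against 62.2, 60.5 and 60.7 CPM (0.17 ± 0.04, adjusted p = 0.0012). MRPS10 had 54.2, 56.5 and 59.9 CPM, against 49.8, 53.1 and 46.3 CPM (0.20 ± 0.05, adjusted p = 0.00162). The groups were separate for each of these genes. MRPL58, also known as ICT1, a peptidyl-tRNA hydrolase built into the large subunit, rose by 0.16 ± 0.05 (adjusted p = 0.0145).

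MRPS6 fell most with dose in Scutellariae Radix, with 21.8, 19.8 and 21.5 CPM at 190 µg/mL, against 27.7, 25.7 and 27.7 CPM at 7.6 µg/mL (−0.36 ± 0.06, adjusted p = 6.13e-06). MRPS28 had 18.8, 16.1 and 17.5 CPM, against 21.7, 22.6 and 22.7 CPM (−0.35 ± 0.06, adjusted p = 2.27e-05). MRPL18 had 50.95, 46.1 and 47.98 CPM, against 57.6, 58.4 and 59.1 CPM (−0.27 ± 0.05, adjusted p = 3.51e-05). All high-dose libraries were below all low-dose libraries for these 3. Of the genes with bacterial counterparts 15 of 44 fell and 2 rose, and of those specific to mitochondria 4 of 31 fell and 3 rose. The count of 27 was 17 without high-dose library 2 and 15 without low-dose library 2. Of the A549 markers 4 of 8 fell and none rose, with sums of 9707 to 10059 CPM at 190 µg/mL, against 10846 to 11503 CPM at 7.6 µg/mL. Markers of other cell types summed to 2.44 to 2.80 CPM, against 3.47 to 4.28 CPM, with 1 of 2 tested lower. Their part in the result was not tested.

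**Figure D3:**
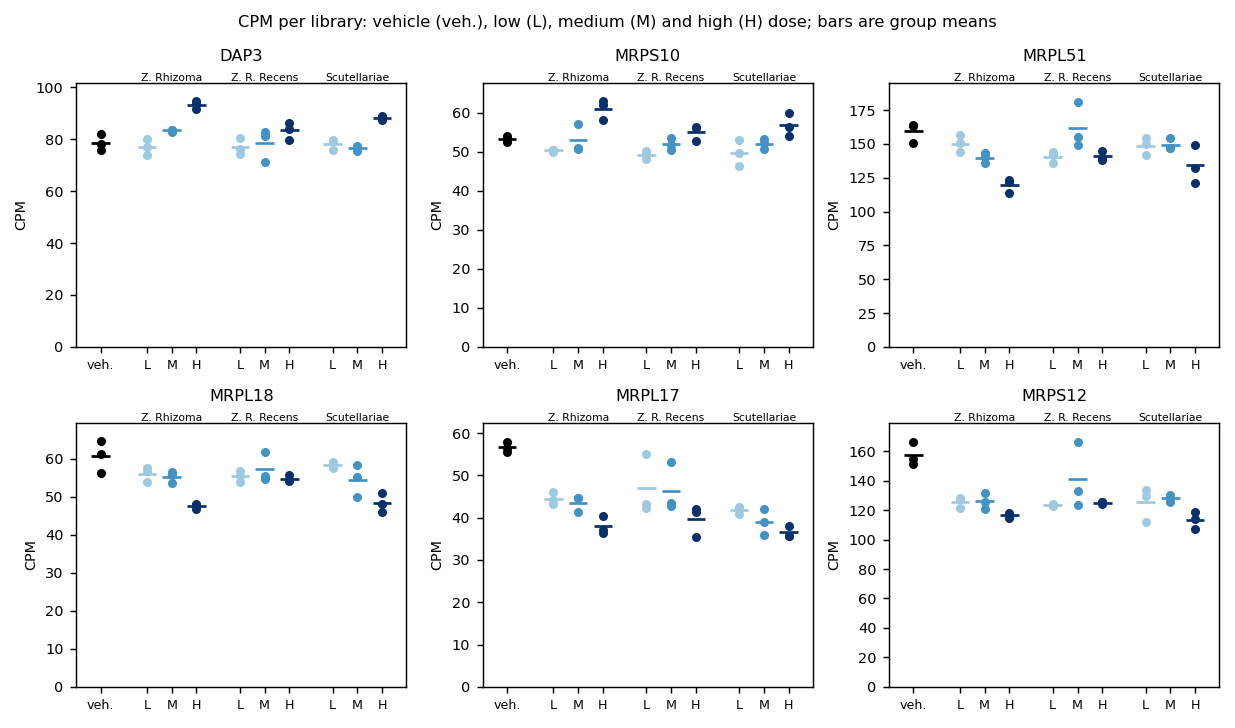
CPM per library (y axes from 0) of DAP3, MRPS10, MRPL51, MRPL18, MRPL17 and MRPS12 in vehicle and at the low, medium and high dose of dried ginger (Z. Rhizoma), fresh ginger (Z. R. Recens) and Scutellariae Radix. Points are libraries and bars group means. DAP3 and MRPS10 are highest and MRPL18 lowest at the high doses of dried ginger and Scutellariae Radix, whereas MRPL17 is below vehicle at every dose.

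Between the low and high dose, 13 of the 80 genes were called in both dried ginger and Scutellariae Radix, all in the same direction. These 2 contrasts share no libraries. DAP3, MRPL45, MRPS10 and MRPS16 were higher in both. MRPL14, MRPL16, MRPL18, MRPL20, MRPL32, MRPL44, MRPS28, MRPS7 and PTCD3 were lower in both, and none was called in opposite directions. The 13 genes were 65% of the 20 called in dried ginger and 48.1% of the 27 called in Scutellariae Radix. Over the 16401 genes tested in both, the same shares were 60.3% and 63.7%, so an overlap of this size was common to all genes. The log2 changes had the same sign for 60 of the 80 genes (75%), against 73.8% of all genes. Pearson r was 0.71 across the 80 genes and 0.45 across all genes, as a description, since genes of one library share its depth and scaling and are not independent replicates. The 2 sets are not matched for level either. The lowest mean among the 80 was 10.6 CPM, whereas the 16401 genes outnumber the 13743 with a mean of at least 1 CPM. PTCD3, a pentatricopeptide repeat protein of the small subunit, had 103, 103 and 106 CPM, against 114, 113 and 112 CPM in dried ginger, and 104, 105 and 106 CPM, against 119, 118 and 112 CPM in Scutellariae Radix, a small fall in both (−0.12 ± 0.04 and −0.15 ± 0.03).

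**Figure D4:**
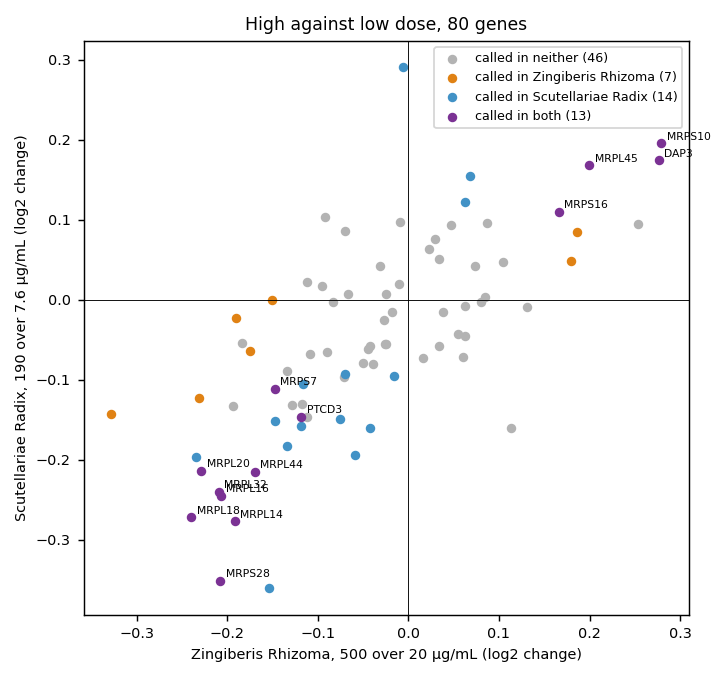
log2 change of the 80 genes from the low to the high dose, dried ginger (x axis) and Scutellariae Radix (y axis), with points coloured by where the gene was called. The 13 genes called in both are named and lie in the lower left (9) and upper right (4), with 7 called in dried ginger alone, 14 in Scutellariae Radix alone and 46 in neither.

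The 2 gingers were compared at 500 µg/mL, where dried ginger had 2 genes higher and 10 lower than fresh ginger (11.3% of all genes called in each direction). DAP3 (93.5, 91.6 and 94.8 CPM in dried ginger, against 79.8, 83.9 and 86.4 CPM in fresh ginger; 0.16 ± 0.05, adjusted p = 0.0123) and MRPS10 (0.15 ± 0.05, adjusted p = 0.0175) were higher. MRPL51 had 122, 114 and 123 CPM in dried ginger, against 138, 145 and 139.9 CPM in fresh ginger (−0.24 ± 0.05, adjusted p = 0.00128). MRPL18 (−0.21 ± 0.05) and MRPL49 (−0.15 ± 0.04, adjusted p = 0.00559) were lower as well, in all 3 libraries. The count of 12 was 7 without dried ginger library 1 or 2, 6 without its library 3 and 7 without fresh ginger library 3. The change from the low to the high dose, tested as an interaction, differed between the gingers for MRPL51, MRPL18 and PTCD3, all more negative in dried ginger (3.75% of the 80, where 5.67% of all genes were more negative and 5.56% more positive). DESeq2, run on this difference after the data were seen, called 3 genes as well. The count of 3 was 1, MRPL51 alone, without dried ginger high-dose library 1 or 2, its low-dose library 2, or fresh ginger high-dose library 2 or 3. Between Sayeok-tang and Bojungikgi-tang at 500 µg/mL, MRPL50 was lower in Sayeok-tang (43.1, 43.8 and 42.3 CPM, against 48.6 and 52.3 CPM; −0.23 ± 0.05, adjusted p = 0.00379) and no other gene was called (0.957% of all genes lower, 1.09% higher). That call was lost without Bojungikgi-tang library 3.

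Genes that build or use the mitochondrial ribosome were examined in the same comparisons. Of all genes, 16.8% rose and 16% fell between doses of dried ginger and 15.5% and 15.6% between doses of Scutellariae Radix, and against vehicle 20.2% were higher and 19% lower with the high dose of dried ginger and 20.2% and 20% with that of Scutellariae Radix. A list of 4 genes held the ribosomal proteins CHCHD1, AURKAIP1 and GADD45GIP1, with NDUFAB1, the mitochondrial acyl carrier protein. Of these 4, 3 were lower with dried ginger at 500 µg/mL than in vehicle. All 4 were lower with Scutellariae Radix at 190 µg/mL, and the medians were −0.32 and −0.36. AURKAIP1 had 51.3, 47.4 and 47.1 CPM with Scutellariae Radix, against 60.3, 67.2 and 65.99 CPM in vehicle (−0.41 ± 0.06, adjusted p = 7.02e-06), and NDUFAB1 changed by −0.32 ± 0.04. Between doses NDUFAB1 fell in both extracts (−0.22 in dried ginger, −0.12 in Scutellariae Radix), and GADD45GIP1 in Scutellariae Radix (−0.40).

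Of 26 assembly factors, 3 rose and 4 fell between doses of dried ginger, and 6 rose and 5 fell between doses of Scutellariae Radix. NGRN, which takes part in modifying the large rRNA, rose in both, with 202, 183 and 189 CPM at 500 µg/mL, against 158, 167 and 155 CPM at 20 µg/mL of dried ginger (0.26 ± 0.04, adjusted p = 1.36e-05), and 0.23 ± 0.03 in Scutellariae Radix. RCC1L, found in the same RNA-modifying module, fell in both (−0.24 ± 0.05 and −0.27 ± 0.05), so members of one module did not move together. Against vehicle at the high dose, 11 fell and 1 rose with dried ginger and 9 fell and 3 rose with Scutellariae Radix, led by the rRNA methyltransferase MRM3 (−0.41) and by MALSU1, which acts late in large-subunit assembly (−0.47).

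Of 15 translation factors, 3 rose and 1 fell with dose of dried ginger, and 4 rose and 1 fell with Scutellariae Radix. The initiation factor MTIF2 (0.13 and 0.26) and OXA1L, which inserts new proteins into the inner membrane (0.16 and 0.18), rose, and the elongation factor TSFM fell (−0.15 and −0.17). Of 10 genes for transcription and upkeep of the mitochondrial genome, 1 rose and 1 fell with dose of dried ginger and 1 rose and 3 fell with Scutellariae Radix. TFAM packs that genome and takes part in its transcription. It had 106, 105 and 104 CPM, against 117, 120.4 and 120.4 CPM in dried ginger (−0.18 ± 0.04, adjusted p = 0.000985), and changed by −0.16 ± 0.04 in Scutellariae Radix.

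Among 9 regulators, of which 8 were tested, of nuclear genes for mitochondria, 2 rose and 3 fell with dose of dried ginger and 1 rose and 4 fell with Scutellariae Radix. MYC, a growth regulator, rose in both (0.29 ± 0.04 and 0.24 ± 0.03), with 181, 181 and 164 CPM at 500 µg/mL of dried ginger, against 139.8, 147 and 144 CPM at 20 µg/mL. NRF1 had 15.3, 14.5 and 14.8 CPM, against 19.1, 18.8 and 18.4 CPM in dried ginger, and fell in both (−0.33 ± 0.06 and −0.17 ± 0.06), as did YY1 (−0.20 ± 0.04 and −0.18 ± 0.03) and GABPA, the DNA-binding part of GABP (−0.18 and −0.15). Of 12 chaperones and proteases, LONP1, a matrix protease, rose most, with 122, 119.6 and 121 CPM, against 81.2, 84.2 and 81.2 CPM in dried ginger (0.56 ± 0.04, adjusted p = 6.96e-13), and 0.46 ± 0.04 in Scutellariae Radix. The Hsp70 HSPA9 rose (0.27 and 0.26), whereas the co-chaperonin HSPE1 (−0.55 and −0.53) and the chaperonin HSPD1 (−0.25 and −0.31) fell in both.

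Of the ribosomal RNAs, MT-RNR1 fell with dose of both gingers, and both RNAs rose with dose of Scutellariae Radix. MT-RNR1 had 1075, 1153 and 1109 CPM at 500 µg/mL, against 1415, 1662 and 1420.1 CPM at 20 µg/mL of dried ginger (−0.43 ± 0.06, adjusted p = 3.35e-06). The groups did not overlap, and MT-RNR1 fell with fresh ginger too (−0.27 ± 0.06, adjusted p = 0.00712). MT-RNR2 passed in neither (−0.08 ± 0.06 and −0.15 ± 0.06). Both rose with Scutellariae Radix, MT-RNR1 by 0.23 ± 0.08 (adjusted p = 0.0451) and MT-RNR2 by 0.28 ± 0.08 (adjusted p = 0.0113). Of the 13 messenger RNAs of the mitochondrial genome, 0 were called by edgeR between doses of dried ginger or Scutellariae Radix, with 1 at an unadjusted p under 0.05 in each and median log2 changes of 0.06 in dried ginger and −0.07 in Scutellariae Radix. The kit selects messenger RNA, and how well it captured the ribosomal RNAs in each group was not tested.

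Coptidis Rhizoma had 1 library per dose, so its values have no replicate check within the group and are given as ratios to vehicle. The ribosomal RNAs were far above vehicle. MT-RNR1 had 24768 CPM at 4.4 µg/mL, 36454 at 22 µg/mL and 21574 at 110 µg/mL, against 1723, 1556 and 1739 CPM in vehicle, which is 14.8-fold, 21.8-fold and 12.9-fold the vehicle mean. MT-RNR2 was 2.90-fold, 3.68-fold and 1.72-fold. In all other extract libraries MT-RNR1 lay between 1075 and 2498 CPM. The 13 messenger RNAs of the mitochondrial genome had median log2 ratios of −0.63, −0.90 and −0.77 at the 3 doses, with single genes from −1.25 to 2.18 at 4.4 µg/mL.

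The 80 ribosomal protein genes stayed close to vehicle in these libraries, with median log2 ratios of −0.08, −0.05 and −0.09 at 4.4, 22 and 110 µg/mL. At 4.4 µg/mL, 44 were below all vehicle libraries and 11 above, where 33% and 33.6% of all genes were. At 22 µg/mL the numbers were 36 below and 17 above (35% and 37.9% of all genes), and at 110 µg/mL 42 and 23 (39.4% and 40.4%). As shares of 80, the numbers above fell short of those of all genes at the 3 doses, and those below exceeded them. These gaps were not tested. By the size rule, a log2 ratio of at least 0.5 in size outside the vehicle range, only MRPL17 passed, at each dose and downwards, where 2.52%, 6.02% and 12.8% of all genes passed in either direction at 4.4, 22 and 110 µg/mL. MRPL17 had 37.1, 37.2 and 31.8 CPM at these doses, against 57.8, 56.5 and 55.6 CPM in vehicle (log2 ratios −0.60, −0.60 and −0.82).

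At 110 µg/mL the other genes below vehicle by the largest ratios were MRPS12 (−0.39), MRPL36 (−0.33), MRPL44 (−0.33) and MRPL20 (−0.31). Those above by the largest ratios were MRPL58 (0.33), MRPL52 (0.31), MRPL24 (0.25), MRPL45 (0.22) and DAP3 (0.21). DAP3 had 85.2, 93.5 and 90.7 CPM at 4.4, 22 and 110 µg/mL, against 75.7, 82.04 and 78.1 CPM in vehicle, so it was above the vehicle range at all 3 doses.

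Zizyphi Fructus, also with 1 library per dose, had MT-RNR1 at 0.972-fold, 0.967-fold and 0.995-fold the vehicle mean at 20, 100 and 500 µg/mL. The median log2 ratios of the 80 genes were −0.11, −0.09 and −0.01, so the dose with the highest concentration lay closest to vehicle. At 20 µg/mL 55 genes were below the vehicle range (31.4% of all genes), at 100 µg/mL 51 (29.8%) and at 500 µg/mL 22 (25.9%), with 3, 3 and 15 above it (31.6%, 29.2% and 26.6%). By the size rule MRPL17 passed at 100 µg/mL (−0.51; 1.13% of all genes in either direction) and no gene passed at 20 µg/mL (1.41%) or 500 µg/mL (1.13%). Without vehicle library 1 it did not pass at 100 µg/mL, and without vehicle library 3 a single gene passed at 20 µg/mL. At 500 µg/mL the genes above vehicle by the largest ratios were MRPL54 (0.28), MRPL43 (0.18), MRPL48 (0.14), MRPS33 (0.13) and MRPL9 (0.13), and those below were MRPL17 (−0.38), MRPL36 (−0.20), MRPL28 (−0.15), MRPL20 (−0.15) and MRPS12 (−0.14).

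**Figure D5:**
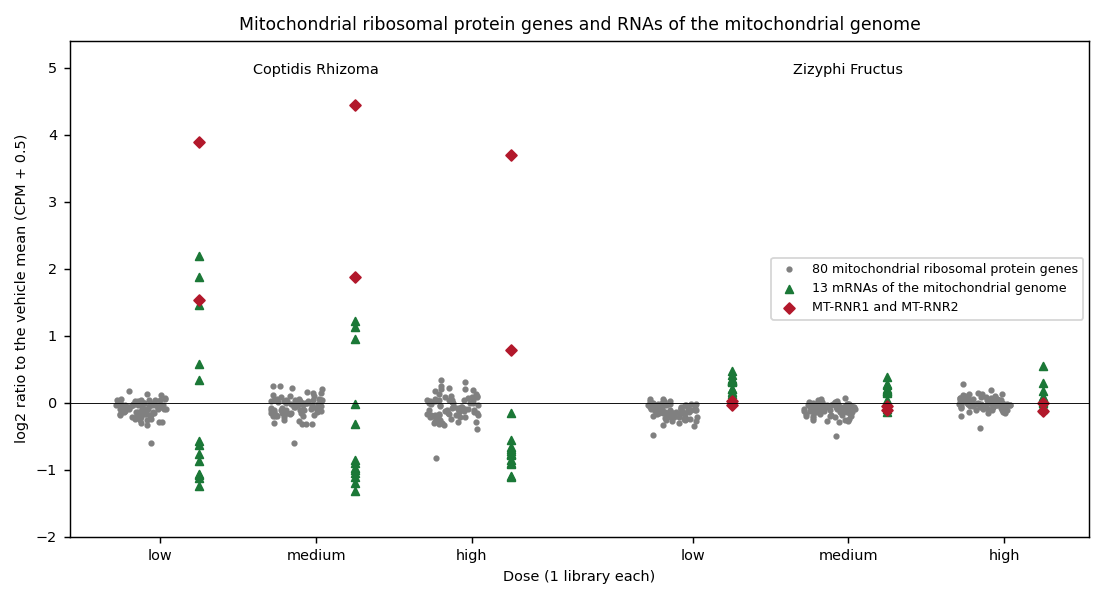
log2 ratio to the vehicle mean (y axis, after adding 0.5 CPM) at the low, medium and high dose of Coptidis Rhizoma and Zizyphi Fructus, 1 library each. Grey points are the 80 ribosomal protein genes, green triangles the 13 messenger RNAs and red diamonds the 2 ribosomal RNAs of the mitochondrial genome. In Coptidis Rhizoma the ribosomal RNAs stand up to 4.45 above vehicle while the ribosomal protein genes stay between −0.82 and 0.33.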

How the data were processed

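RNA from 60 A549 samples treated for 24 h was sequenced as pairs of 100 bases from a directional messenger RNA kit, per the labels. The authors deposited RSEM expected counts per Ensembl gene ID; per the submitters' processing notes the tools were FastQC 0.11.9, Trim Galore 0.6.5, STAR 2.7.3a and RSEM 1.3.3 with GRCh38. The annotation release and the strand setting of counting are not given in the sources used here. Of 269 value columns, 60 belong to these samples and 209 were not used. Of the non-zero expected counts 24.4% were not whole, and all were rounded. Genes were named and located with GENCODE 29 (57055 of 60675 IDs matched).

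edgeR 4.0.16 (R 4.3.3, limma 3.58.1) was fitted to each set of 2 extracts with vehicle, with TMM factors, filterByExpr at a minimum count of 10 and the robust quasi-likelihood test. P-values were adjusted by Benjamini-Hochberg over all genes, and an adjusted p under 0.05 was a call. Steps were tested on simulated data. CPM values use TMM factors over all 60 libraries, so a fold from CPM can differ slightly from the fitted one. Errors after ± are standard errors for log2 changes and SDs for levels. Groups of 1 library were set against the vehicle mean as log2 ratios after adding 0.5 CPM. Alternatives were RLE size factors, no filter, DESeq2 1.42.0, 1 fit of all libraries, a replicate block, loess removal of length and GC trends (span 0.3) and leaving out each library. Those of the difference in dose change between extracts were chosen after seeing the data. Replicate counts differed by more than sampling noise (chi-square per gene 1.81 to 12.6). Tables and figures used pandas 2.3.3, numpy 2.4.6 and matplotlib 3.10.9.

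The named genes were, per comparison of a high dose, up to 3 higher and 3 lower called genes with the lowest p, 1 each at other doses, 10 genes followed throughout, the extremes of CPM per kb, up to 5 in each direction for single libraries, up to 3 per gene list and genes called alike in at least 4 of 6 comparisons. Genes called in both dose contrasts and the promoters shown were named after their values were seen. The genes and lists were chosen with earlier results of these data known.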

Additional observations from a re-analysis of the deposited data

Results flagged for a closer look

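The change from 20 to 500 µg/mL differed between dried ginger and fresh ginger for 3 of the 80 genes (3.75%), where 5.67% of all genes were more negative in dried ginger and 5.56% more positive. The share among the 80 was thus below that of all genes in either direction alone. The difference was tested as an interaction with edgeR's quasi-likelihood test and Benjamini-Hochberg adjustment over all genes. DESeq2, added after the data were seen, also called 3. The dose contrasts of the gingers share no libraries, and the differences given are the log2 change in dried ginger minus that in fresh ginger.

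MRPL51 had 122, 114 and 123 CPM at 500 µg/mL, against 144, 151 and 157 CPM at 20 µg/mL of dried ginger. In fresh ginger it had 138, 145 and 139.9 CPM at 500 µg/mL, against 144, 136 and 142 CPM at 20 µg/mL, and these groups overlapped. The difference was −0.33 ± 0.07 (adjusted p = 0.00293).

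MRPL18 had 46.8, 47.9 and 47.7 CPM at the high dose, against 53.9, 56.8 and 57.5 CPM at the low dose of dried ginger. In fresh ginger it had 54.1, 54.3 and 55.8 CPM, against 56.9, 53.97 and 55.5 CPM, again with overlap. The difference was −0.22 ± 0.07 (adjusted p = 0.0355). PTCD3 had 103, 103 and 106 CPM, against 114, 113 and 112 CPM in dried ginger, and 112, 112 and 118 CPM, against 107, 109 and 113 CPM in fresh ginger, with a difference of −0.17 ± 0.06 (adjusted p = 0.0436). The same test between Sayeok-tang and Bojungikgi-tang called 0 of the 80 genes by edgeR and 0 by DESeq2, with 8 at an unadjusted p under 0.05.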

How the results depend on the processing

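The number of the 80 genes called stayed within 1.5 times of the reported one in 25 of 26 comparisons with RLE size factors, 22 with DESeq2, 17 with no filter on low counts, 14 with length and GC trends removed and 11 in 1 fit of all 60 libraries. No call reversed its direction. Of the log2 changes of named genes, 343 kept their side of the threshold under these settings and 17 lost it, and 313 kept and 56 lost it when a library was left out. The median over the 80 genes moved beyond the spread between libraries in 6 comparisons. With the trends removed it was 0.0065 between doses of Sayeok-tang (reported 0.02), 0.03 between doses of Bojungikgi-tang (0.05), −0.06 at the medium dose of Pinelliae Tuber (−0.09), −0.07 at that of Scutellariae Radix (−0.12) and −0.02 in Sayeok-tang against Bojungikgi-tang (−0.03), the last also with the block. Without single libraries it was 0.04 to 0.08 between doses of Bojungikgi-tang, up to 0.04 between doses of Sayeok-tang, −0.05 in dried against fresh ginger without fresh ginger library 3, and 0.0018 in Sayeok-tang against Bojungikgi-tang without Bojungikgi-tang library 3. The median between doses of Pinelliae Tuber (−0.0023) was above 0 with no filter and without low-dose library 1. The cause of these shifts was not tested, other than that leaving out a library leaves fewer samples.

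In the fit of all 60 libraries, Sayeok-tang had 8 calls against vehicle at the low, 8 at the medium and 13 at the high dose, and 1 between doses. Bojungikgi-tang had 9, 1 and 2, and 0 between doses, and fresh ginger had 23 at the low dose, 2 at the medium dose and 2 between doses. Dried ginger had 15 at the low and 18 at the medium dose, Scutellariae Radix 7 at the low dose and dried against fresh ginger 20. With length and GC trends removed, Sayeok-tang had 11 at the medium dose and 5 between doses, Bojungikgi-tang 12 at the low dose and 0 between doses, and fresh ginger 6, 0 and 8 at the low, medium and high dose and 0 between doses. Dried ginger then had 2 at the low dose, Pinelliae Tuber 11 at the high dose, Scutellariae Radix 10 at the low dose and dried against fresh ginger 21. With no filter on low counts, Bojungikgi-tang had 7 at the medium dose and 4 between doses, fresh ginger 18 at the low and 3 at the medium dose, dried ginger 12 and 14, Pinelliae Tuber 21 and 24, and Scutellariae Radix 28 at the low dose. DESeq2 gave 1 between doses of Sayeok-tang, 3 at the high dose and 0 between doses of Bojungikgi-tang and 2 at the medium dose of fresh ginger, and RLE factors gave 0 between doses of fresh ginger.

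With the size rule at 0.3, 3, 5 and 9 genes passed at the low, medium and high dose of Coptidis Rhizoma, and 4 at the low and 1 at the high dose of Zizyphi Fructus. The shares of all genes that passed at 0.3 are not given, so these counts cannot be called particular to this group. With the rule at 0.5, the share of all genes rose with dose of Coptidis Rhizoma too (2.52%, 6.02% and 12.8%). The fit of all 60 libraries, which takes the spread from the other groups and assumes that a lone library varies like them, called 5, 11 and 26 in Coptidis Rhizoma (7.38%, 17.3% and 32.4% of all genes) and, in Zizyphi Fructus, 3 at the low and 0 at the medium dose (0.767% and 0.0504%).

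For the difference in dose change between the gingers, alternatives were chosen after the data were seen. The 3 calls became 5 in the fit of all 60 libraries, 10 with the trends removed and 1 to 3 without single libraries. With no filter there were also 3, but MRPL18 and PTCD3 were not among them. MRPL51 was called in each of these alternatives. The shares of all genes called in them are not given either.

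Leaving out each library in turn gave 6 to 20 calls at the low dose, 6 to 24 at the medium dose and 0 to 3 between doses of Sayeok-tang. For Bojungikgi-tang it gave 4 to 26 at the low, 0 to 9 at the medium and 2 to 5 at the high dose, and 0 to 1 between doses. For fresh ginger it gave 4 to 13, 0 to 13 and 4 to 12 at the low, medium and high dose, and 0 to 1 between doses. For dried ginger it gave 0 to 4 at the low and 2 to 8 at the medium dose, and 11 to 18 between doses. For Pinelliae Tuber it gave 2 to 16, 5 to 20 and 4 to 22 at the low, medium and high dose. For Scutellariae Radix it gave 4 to 21 at the low and 10 to 27 at the medium dose, and 15 to 23 between doses. Dried against fresh ginger had 6 to 8, Sayeok-tang against Bojungikgi-tang 0 to 1, and Zizyphi Fructus 0 to 1 by the size rule at the medium and at the low dose. Where 1 library was left in a group, it is assumed to vary like the other groups. The shares of all genes called without each library are not given.

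Samples with the same replicate number did not deviate together: no comparison of 26 had every pair's correlation over 0.1, and these ran from −0.22 to 0.24. With the replicate number as a block, the counts stayed within 1.5 times except between doses of Bojungikgi-tang, which had 0. Library totals of 17.51 to 38.54 M counts and 2 or 3 libraries per group limit what small changes can be called.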
